A study of Homo sapiens with 9 samples.

Results

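The MSI1 iCLIP load of a gene, the number of crosslink sites in its exons, was related to how abundant and how long its transcript was in U251 cells, to find transcripts that carried more or fewer sites than abundance and length predicted. Sites were taken from the 3 iCLIP lists of control cells. A site counted towards the load of a gene when the same chromosome, start and strand was in at least 2 of the 3 lists and lay in an exon of the gene on its strand. Of the 20848 genes in the count tables, 2782 had at least 1 such site, and 394 had a site found in all 3 lists. The test below used the 12266 genes with a mean of at least 1 CPM (a library's counts of a gene scaled by its total) in the control RNA-seq libraries, of which 2565 (20.9%) had a load.

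U251 is an established human glioblastoma line. The study compared 3 RNA-seq libraries of control cells, titled WT, with 3 of cells titled Msi1 KD, and made 3 iCLIP libraries with an antibody against MSI1 from cells titled WT; neither the knockdown reagent nor the treatment of the control cells is given in the labels, and nothing else separates the groups. The protocol in the labels, which describes iCLIP, says that biological replicates were combined, while each replicate has its own list. P-values measure the spread between these libraries, which may be technical. Of the glioma and astroglial markers, some were abundant (VIM at 2223 to 2756 CPM and SOX2 at 136 to 163 CPM in the 3 control libraries), GFAP was at 18.1 to 103 CPM, S100B at 1.09 to 2.23 CPM and OLIG2 at 0, and the leukocyte markers PTPRC and CD3E were at 0. The epithelial keratin KRT8 was also present at 119 to 262 CPM, with EPCAM at 0.05 CPM or less. Among neuronal markers, SYT1 was at 18.1 to 27.0 CPM, SNAP25 at 1.10 to 2.54 CPM and STMN2 at 0.

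Musashi1 is an RNA-binding protein of neural stem cells that is high in glioblastoma. Its RNA recognition motifs bind short single-stranded stretches that contain UAG, often in the 3′ UTR, and it is known to alter the translation and stability of bound mRNAs. In iCLIP, ultraviolet light links a protein to the RNA it touches, and the nucleotide where reverse transcription stops marks the crosslink, so that abundant RNAs give more sites than rare ones at equal affinity.

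The 3 lists were of unequal size. Lists 1, 2 and 3 held 1746795, 145718 and 208722 sites, of which 241103 (13.8%), 27058 (18.6%) and 51043 (24.5%) lay in exons on the sense strand. In list 1, 6.52% of exonic sites were also in another list, against 25.7% in list 2 and 25.4% in list 3. The exonic sites in at least 2 lists numbered 16811. Of these, 58.6% were shared by lists 1 and 3 alone, 22.8% by lists 1 and 2 alone and 6.45% by lists 2 and 3 alone, and list 1 entered all the others. The RNA-seq libraries held 32919299 to 47277016 reads in genes.

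Load went more closely with CPM than with exonic length. Across the 12266 genes the number of sites in at least 2 lists had a Spearman correlation of 0.44 with mean control CPM and of 0.21 with exonic length; genes are not independent replicates and share the depth of the lists. The share of genes with a load was 4.02% at 1 to 2 CPM, 14.4% at 20 to 50 CPM, 44.5% at 100 to 200 CPM and 89.5% at 1000 CPM or more. In a negative binomial regression on both quantities, abundance and length together accounted for 50.1% of the deviance and abundance alone for 47.9%. CPM was not divided by length, so these shares do not fully separate abundance from length. With straight lines in place of curves, a doubling of CPM went with a 1.85-fold higher load and a doubling of length with a 1.21-fold higher one. For the exonic sites of single lists, a doubling of length went with 1.64-fold, 1.41-fold and 1.58-fold as many sites in lists 1, 2 and 3. For sites found in all 3 lists the direction turned, with 0.77-fold as many sites per doubling of length. The load was concentrated in few transcripts: 5 genes held 22.0% of the 16421 sites in tested genes and 100 genes held 55.4%.

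**Figure D1:**
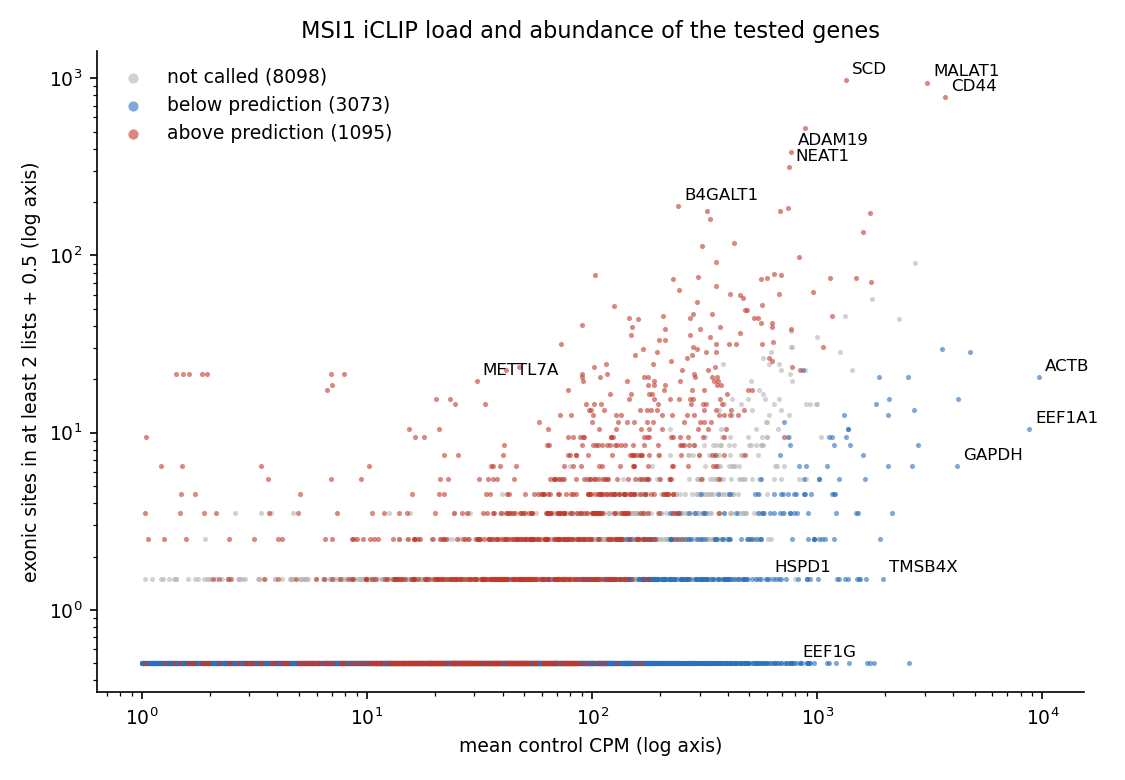
Exonic sites in at least 2 lists (plus 0.5, log axis) against mean control CPM of the 3 control libraries (log axis), 1 point per tested gene. Red marks genes called above prediction, blue those called below and grey those not called. SCD, MALAT1 and CD44 carry the most sites, while EEF1A1, ACTB and GAPDH, among the most abundant, carry 10, 20 and 6.

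Each gene was tested against its own prediction. For each list, the expected number of exonic sites was taken from the regression on abundance and length. edgeR's quasi-likelihood test asked whether the ratio of observed to expected sites differed from 1 by more than the spread between the 3 lists. It estimated that spread partly from other genes and took the expected counts as exact. The p-values thus leave out the error of the prediction. With Benjamini-Hochberg adjustment at 0.05, 1095 genes (8.93% of those tested) were above prediction and 3073 (25.1%) were below it, together 34% of genes. All 3 lists were on the side of the call for 875 of the genes above and 2943 of those below, and 508 genes were above by at least 2-fold in each list. The median log2 ratio over all genes was -0.90, and the regressions do not force the ratios to balance. For sites in at least 2 lists, 19637 were expected in the tested genes where 16421 were found. At 500 CPM or more, 220 coding genes without a hydrophobic stretch (defined below) held 3690 such sites where 8782 were expected. The 50 with a stretch held 2545 where 1817 were expected. When the expected counts were rescaled so that the median ratio was 1, the split turned to 1939 genes above and 816 below; the 1095 genes above stayed above, and 816 of the 3073 genes below stayed below. Without list 1, the largest, 696 genes were above and 496 below, and without list 2 1368 were below. STAG1 and C6orf153 lay just inside the threshold (adjusted p = 0.049982 and 0.049987) and MAP3K4 and MARCH2 just outside (0.050062 and 0.050098).

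SCD, the delta-9 desaturase that makes monounsaturated fatty acids, had the highest load. The gene (chr10:102096762-102114578, plus strand, hg18) had 2554, 667 and 859 exonic sites in lists 1, 2 and 3, where 319, 42.4 and 80.3 were expected, and 977 sites in at least 2 lists. Its control CPM were 1198, 1642 and 1175. The 3 lists were all above prediction, by 8.0-fold to 15.7-fold, and the log2 ratio over the lists was 3.51 (SE 0.28, edgeR's quasi-likelihood test, adjusted p = 1.01e-34). The 3 genes nearest to SCD in abundance and exonic length were TFRC, COL1A2 and NUCKS1, which carried 45, 3 and 22 sites in at least 2 lists. FADS2, a second desaturase, was chosen for its large ratio after its values were seen. At 331, 494 and 174 CPM, it had 1103, 91 and 147 sites where 53.8, 6.25 and 12.3 were expected (log2 ratio 3.96, SE 0.19, adjusted p = 1.04e-89).

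Several of the most loaded mRNAs encode proteins of the cell surface and the pericellular space. ADAM19, a membrane metalloprotease, had 1726, 186 and 483 sites where 207, 26.6 and 51.5 were expected (log2 ratio 3.04, SE 0.25). It carried 384 sites in at least 2 lists. Its nearest neighbours HDLBP, NF2 and SERBP1 carried 0, 37 and 3, and HDLBP and SERBP1 were themselves called below prediction. TIMP2, an inhibitor of matrix metalloproteases, had 1085, 70 and 256 sites where 66.2, 7.80 and 15.5 were expected (log2 ratio 3.8, SE 0.20). Its nearest neighbour KIF23, itself called below prediction, at 319 CPM against 325 CPM, carried 1 site in at least 2 lists against 178. The next nearest, SEC61A1 (not called) and POLR2B (called below), carried 6 and 0.

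B4GALT1, a Golgi galactosyltransferase, had the largest ratio among the 10 genes with the most sites. It had 720, 112 and 250 sites where 59.5, 6.85 and 13.7 were expected, a log2 ratio of 3.94 (SE 0.20, adjusted p = 2.03e-81), at 215 to 257 CPM. ARL6IP1, a membrane protein that shapes the endoplasmic reticulum, had 693, 113 and 211 sites where 80.2, 10.1 and 18.8 were expected (log2 ratio 3.36, SE 0.21). It carried 185 sites in at least 2 lists. Its nearest neighbours in abundance and length, RPL10, CNN3 and RPL15, carried 0, 23 and 3. RPL10 and RPL15 were themselves called below prediction and CNN3 above. TTYH3, a multipass membrane protein, had 1456, 79 and 215 sites where 133, 16.7 and 32.7 were expected (log2 ratio 2.90, SE 0.22). Its abundance was uneven, at 889 and 971 CPM in controls 1 and 2 and 187 CPM in control 3, and the call held without any 1 control library. B4GALT1, ARL6IP1 and TTYH3 were above prediction in each of the 3 lists.

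CD44, the hyaluronan receptor and a marker of mesenchymal glioma cells, carried 781 sites in at least 2 lists but stood closer to its prediction. It was the most abundant of the genes with high load, at 3611 to 3853 CPM, and had 1543, 651 and 821 sites where 864, 119 and 215 were expected. The excess was 1.79-fold in list 1 and 5.48-fold in list 2, and the log2 ratio was 1.88 (SE 0.34, adjusted p = 6.16e-07). Without list 3 its call was lost, as it was with sites within 10 nt merged or with no limit on CPM, and for sites in all 3 lists its load was at the prediction (log2 -0.15). Only 76 tested genes had 1000 CPM or more, so the prediction in this range rests on few genes. HSP90AA1, its nearest neighbour, at 4227 CPM and itself called below prediction, had 15 sites in at least 2 lists. The next nearest, MALAT1 (called above) and FLNA (called below), had 942 and 13.

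**Figure D2:**
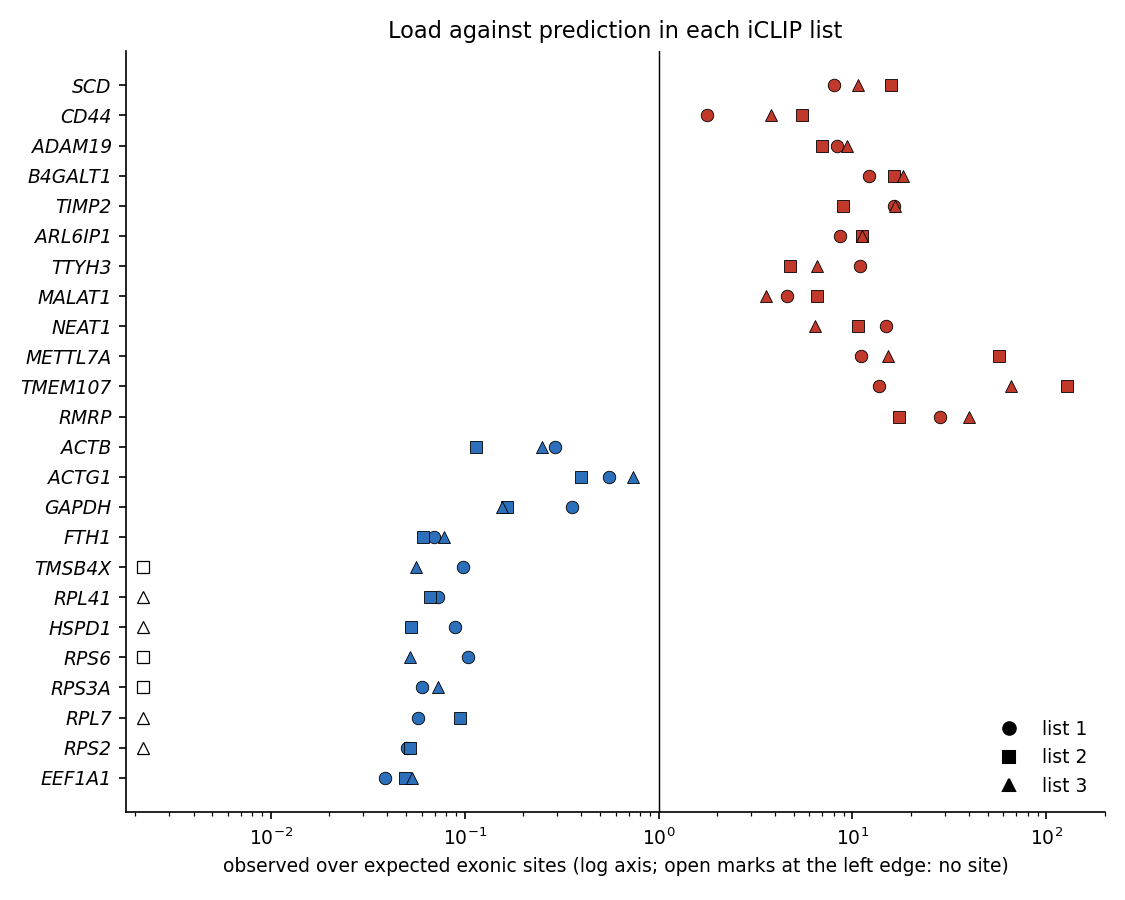
Ratio of observed to expected exonic sites (log axis) in list 1 (circles), list 2 (squares) and list 3 (triangles) for 12 genes above prediction (red) and 12 below (blue), with the line at a ratio of 1. Each shown list of the red genes lies to the right of the line and each list of the blue genes to the left; open marks at the left edge stand for 0 sites.

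In the loaded mRNAs the sites lay mostly in the last exon, which holds most or all of a 3′ UTR. In SCD 950 of 977 sites (97.2%) were in the last exon, which made up 74.9% of the exonic length, and their median position was nucleotide 3022 of 5468 from the 5′ end of the joined exons. In CD44 776 of 781 sites (99.4%) were in the last exon, against 57.1% of length. ADAM19 and TTYH3 had lower shares, 88.0% and 88.8%. The sites were spread along the last exon rather than gathered in 1 place: 17.9% of the exonic nucleotides of SCD were sites, and the densest 100 nt of SCD held 62 of its 977 sites. With sites within 10 nt merged, 1118 genes were above prediction and 1774 below.

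**Figure D3:**
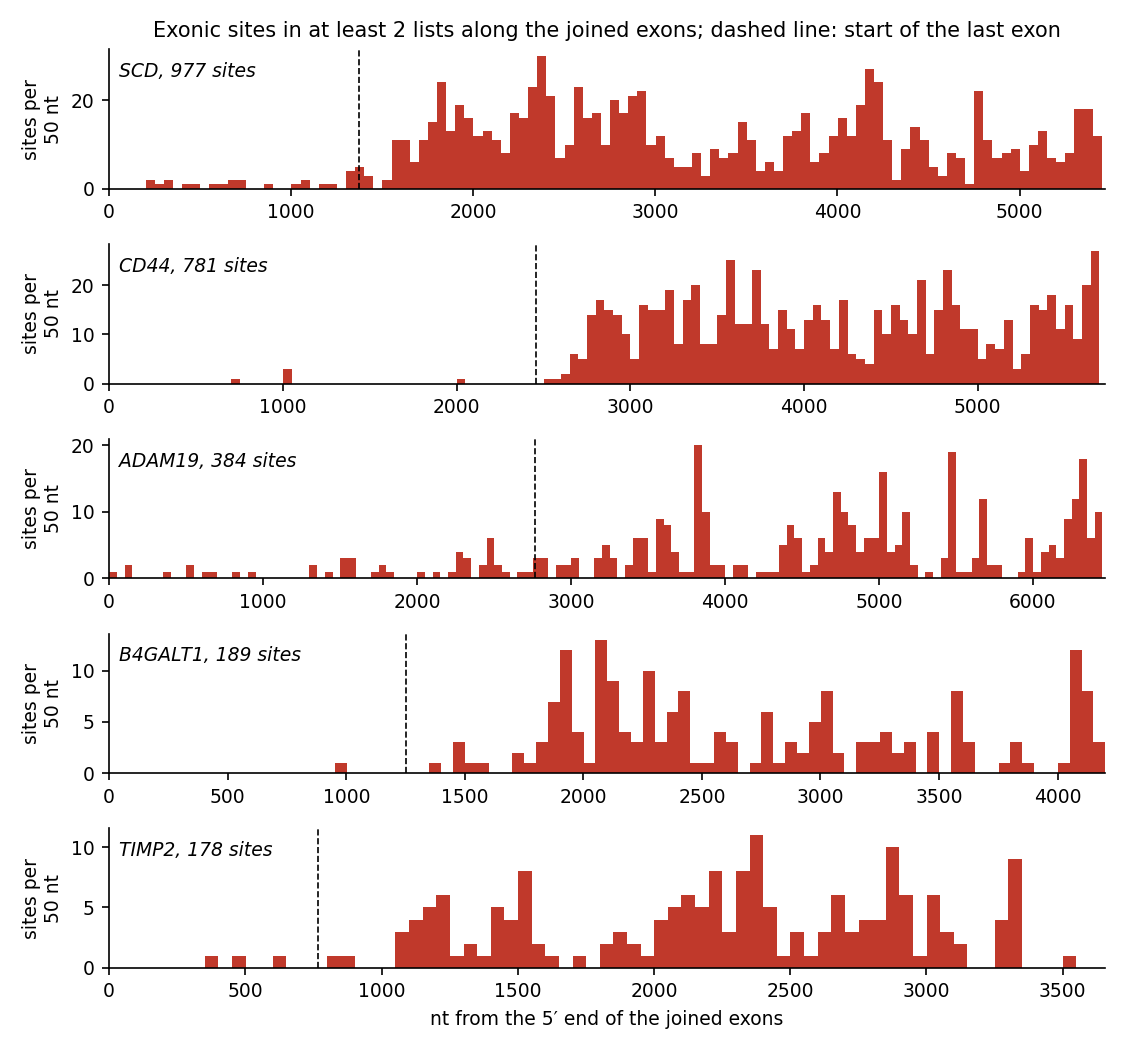
Sites in at least 2 lists per 50 nt along the joined exons (nucleotides from the 5′ end) of SCD, CD44, ADAM19, B4GALT1 and TIMP2; the dashed line is the start of the last exon. Most bars lie past the dashed line in each of the 5 genes; they reach close to the 3′ end in SCD, CD44, ADAM19 and B4GALT1, and in TIMP2 a single site lies beyond nucleotide 3351. ADAM19 also has sites before it.

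Nuclear noncoding RNAs were the other group with high load. MALAT1, a long RNA of nuclear speckles with 1 exon in these tables (chr11:65021809-65030513, plus strand), had 3619, 700 and 689 sites where 787, 106 and 193 were expected (log2 ratio 2.29, SE 0.33, adjusted p = 1.66e-10), at 2717 to 3290 CPM; its call was lost without list 3. NEAT1, the scaffold of paraspeckles, had 2098, 191 and 220 sites where 140, 17.8 and 34.3 were expected (log2 ratio 3.42, SE 0.23). RMRP, the RNA of a ribonuclease complex, had 69, 12 and 24 sites in 265 nt where 2.43, 0.69 and 0.60 were expected (log2 ratio 4.57, SE 0.24). How far the RNA-seq libraries capture an RNA as short as RMRP was not tested, so its expected counts are uncertain. KCNQ1OT1, an antisense transcript of 59461 nt, had 418, 10 and 24 sites, but its length lies at the edge of the fitted range and its expected count of 4.11 in list 1 is an extrapolation. In SNHG7, a small nucleolar RNA host, 8 of 9 sites lay within 100 nt, and its call was lost when sites in exons of more than 1 gene were left out. Of the 17 tested genes of the list of small nucleolar RNA hosts and nuclear noncoding RNAs, 6 (35.3%, against 8.93% of all genes) were above prediction and 1, TUG1, was below (5.88%, against 25.1%), with a median log2 ratio of 0.48 against -0.90 over all genes.

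Of the 10 largest among called genes with at least 10 sites, 7 were protocadherin gamma genes, which share their last exons. The 22 protocadherin gamma genes with a load carried 21 or 22 sites each, and 21 of them had none outside shared exons, while their gene counts were low, at 1.03 to 9.61 CPM in the control libraries for the 7 named. Without sites in exons of more than 1 gene the log2 ratio of PCDHGB1 was -3.45 in place of 5.86 (adjusted p = 0.035, called below), and that of PCDHGA4 was 0.02 and no longer called, so these ratios are uncertain. In the exon tables of the 3 control libraries all 66 rows of exons that these genes share hold 0 reads, as do all 1005 such rows over all genes, while the iCLIP sites there were counted, so the CPM of these genes leave out the exons that carry the sites. The remaining 3 of the 10 were TMEM107, METTL7A and RMRP. In TMEM107 all 17 sites lay within 100 nt, and whether they belong to its mRNA was not tested. METTL7A, a lipid droplet protein, had 122, 49 and 27 sites where 11.1, 0.86 and 1.77 were expected, a log2 ratio of 4.58 (SE 0.23, adjusted p = 1.57e-88), at 27.4 to 33.0 CPM.

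Outside that cluster, 9 further genes with large ratios were chosen after their values were seen. LIPG, a secreted lipase, had 220, 16 and 38 sites where 11.4, 0.83 and 1.74 were expected (log2 ratio 4.26, SE 0.20). ECE1, the endothelin-converting enzyme of the membrane, had 783, 57 and 93 sites where 37.0, 3.78 and 7.78 were expected (log2 ratio 4.0, SE 0.19). ITM2B, a type II membrane protein, had 314, 83 and 107 where 31.9, 3.88 and 7.19 were expected (log2 ratio 3.89, SE 0.20), and ATP1B1, the beta subunit of the sodium pump, had 178, 21 and 47 where 14.0, 1.39 and 2.72 were expected (log2 ratio 3.84, SE 0.21). The others included the cytokine LIF (log2 ratio 4.01), the growth factor PTN (3.66), the tetraspanin TSPAN9 (4.05), the proton pump subunit ATP6V0C (3.61) and the syndecan SDC3 (3.52). In each of these 9 genes all 3 lists were above prediction.

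Among genes called below with at least 10 expected sites in at least 2 lists, the smallest ratios were mostly those of the translation machinery. EEF1A1, the elongation factor that delivers aminoacyl-tRNA (chr6:74282194-74287476, minus strand), was at 8171 to 9068 CPM and had 52, 9 and 17 sites where 1343, 184 and 318 were expected. It carried 10 sites in at least 2 lists against 781 in CD44, with a log2 ratio of -4.44 (SE 0.41, adjusted p = 1.13e-25); its expected counts come from the extreme of the abundance range. EEF1G, a subunit of the same elongation complex, had 0 sites in each list at 574 to 953 CPM, where 62.5, 8.84 and 15.1 were expected. Against a floor of 3 sites over the 3 lists this is at least 28.8-fold lower than predicted; its call was lost without list 1. RPS2, a protein of the small ribosomal subunit, had 5, 1 and 0 sites where 98.9, 19.1 and 27.0 were expected (log2 ratio -4.56, SE 0.65). RPL7, RPS3A, RPL41 and RPS6 had 3 to 7 sites in list 1, where 49.8 to 67.4 were expected, with log2 ratios of -4.18 to -3.72; the call of RPS3A was lost without list 1.

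Other abundant transcripts were also below. TMSB4X, an actin-binding peptide, had 11, 0 and 2 sites where 112, 30.0 and 35.6 were expected (log2 ratio -3.91, SE 0.69), HSPD1, the mitochondrial chaperonin, had 13, 1 and 0 where 146, 18.9 and 34.6 were expected (log2 ratio -4.0, SE 0.71), and FTH1, the ferritin heavy chain, had 7, 1 and 2 where 101, 16.4 and 25.6 were expected (log2 ratio -3.79, SE 0.74). ACTB, at 6328 to 12088 CPM, had 213, 12 and 42 sites where 724, 104 and 167 were expected (log2 ratio -2.13, SE 0.31), and GAPDH had 93, 7 and 10 where 260, 42.2 and 64.4 were expected (log2 ratio -2.04, SE 0.34; lost with deposited p-values under 0.05). ACTG1 was called below (log2 ratio -0.81, adjusted p = 0.017), but straight-line terms or rescaling to the median brought it to 0.06 or 0.02, and the call was also lost without any 1 of the 3 lists, with deposited p-values under 0.05, with sites within 10 nt merged, with summed exon counts as abundance and with the last exon as a further term. The 13 genes described from EEF1A1 to ACTG1 each have 3 to 61 processed pseudogenes in the GENCODE annotation, to which short reads can also align. How the lists treated such reads is not given in the sources used here, and the part of mappability in these ratios was not tested. In a further fit all genes that have a processed pseudogene were left out. Below prediction were then 9 of 11 translation factors, 7 of 7 chaperones and 15 of 23 proteasome genes. So were 9 of 21 genes of oxidative phosphorylation and 1 of 7 glycolysis genes, and 1 ribosomal protein gene was left to test. Over all genes in that fit 2786 of 10980 were below, a higher share than for glycolysis.

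Gene lists differed in how their members were placed. Among the cytoplasmic ribosomal proteins 64 of 74 were below prediction and 0 above (also 0 above at an unadjusted p below 0.05 and 0 with limma), with a median log2 ratio of -2.63 against -0.90 over all genes tested; 73 of the 74 have a processed pseudogene. The corresponding counts below prediction were 19 of 30 for translation factors, among them EEF1B2 and, chosen after its values were seen, EIF3A (21, 2 and 3 sites, log2 ratio -3.20), 17 of 19 for chaperones such as the cytosolic CCT7 and HSPA8 (HSPD1, HSPE1 and HSPA9 of this list are mitochondrial), 17 of 31 for the proteasome, 24 of 55 for oxidative phosphorylation, 9 of 18 for glycolysis and 12 of 25 for G2/M and mitosis, against 25.1% of all genes. That share rose with abundance, from 18.6% at 50 to 100 CPM to 29.8% at 100 to 200, 43.8% at 200 to 500, 52.0% at 500 to 1000 and 77.6% at 1000 CPM or more. The glycolysis and G2/M lists, with 50% and 48% below at median abundances of 391 and 270 CPM, were thus near the 43.8% of their range. Among these lists, translation factors had 1 member above prediction, EIF4H, glycolysis had 2, and the others had 0, both at an unadjusted p below 0.05 and with limma. Without list 1, which holds most sites, 22 of 74 ribosomal proteins, 14 of 30 translation factors and 11 of 19 chaperones were below. The proteasome had 1 of 31 below and oxidative phosphorylation 1 of 55. Over all genes 496 of 12266 were below without list 1, so neither of these lists exceeded the share of all genes. Rescaled to the median ratio, the counts below were 39 for ribosomal proteins, 13 for translation factors, 8 for chaperones, 6 for the proteasome and 9 for oxidative phosphorylation. Above were 1 ribosomal protein, 4 translation factors and 2 genes of oxidative phosphorylation. Over all genes 816 of 12266 were then below and 1939 above.

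In the list of lysosome and secretory glycoproteins, 12 of 26 tested members (46.2%, against 8.93% of all genes) were above prediction and 2, CLU and GRN, below (7.69%, against 25.1%), with a median log2 ratio of 0.46. CTSB, a lysosomal protease, had 317, 35 and 76 sites where 39.2, 4.23 and 8.59 were expected (log2 ratio 3.05, SE 0.21). CD9, a tetraspanin, had 62, 12 and 11 where 8.98, 1.09 and 1.86 were expected (log2 ratio 2.85, SE 0.28), a call lost with deposited p-values under 0.05. CLU, a secreted chaperone at 144 to 250 CPM, had 7, 0 and 0 sites where 39.9, 4.42 and 8.85 were expected (log2 ratio -2.98, SE 0.67), a call lost without list 1 or with deposited p-values under 0.05. Without list 1, 9 members were above and 1 below, against 696 and 496 of all 12266 genes. The unfolded protein and amino acid response list had 7 of 20 (35%) above and 4 (20%) below, against 8.93% and 25.1% of all genes; HSPA5, the endoplasmic reticulum chaperone, was below with 63, 13 and 21 sites where 261, 34.3 and 64.6 were expected (lost with deposited p-values under 0.05), while CANX, the membrane-bound chaperone of the same compartment, named after its values were seen, had 652, 101 and 190 sites and a log2 ratio of 1.01.

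Of 35 integrin and focal adhesion genes 9 (25.7%) were above prediction, against 8.93% of all genes, and 9 (25.7%) below, near the 25.1% of all genes, with a median log2 ratio of -0.07. ITGB3, an integrin beta chain, had 66, 5 and 13 sites where 9.17, 0.58 and 1.22 were expected (log2 ratio 3.01, SE 0.30), while ILK, a cytosolic adaptor of integrins, had 2, 0 and 0 where 10.2, 0.97 and 1.88 were expected (log2 ratio -2.56, SE 0.66), a call lost without list 1, without list 2, with deposited p-values under 0.05 or after rescaling to the median. Of 23 cadherin and junction genes 8 (34.8%) were above and 5 (21.7%) below. Of 32 extracellular matrix genes 7 (21.9%) were above and 12 (37.5%) below. COL1A2, a fibrillar collagen chain at 947 to 1356 CPM, had 43, 4 and 12 sites where 288, 38.1 and 72.5 were expected (log2 ratio -2.79, SE 0.40), and after its values were seen TGFBI was chosen beside it, with 299, 26 and 73 sites and a log2 ratio of 2.00. With the length of the last exon as a further term the matrix list turned to 14 above and 4 below. Over all 12266 genes that term gave 1021 above and 2614 below.

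**Figure D4:**
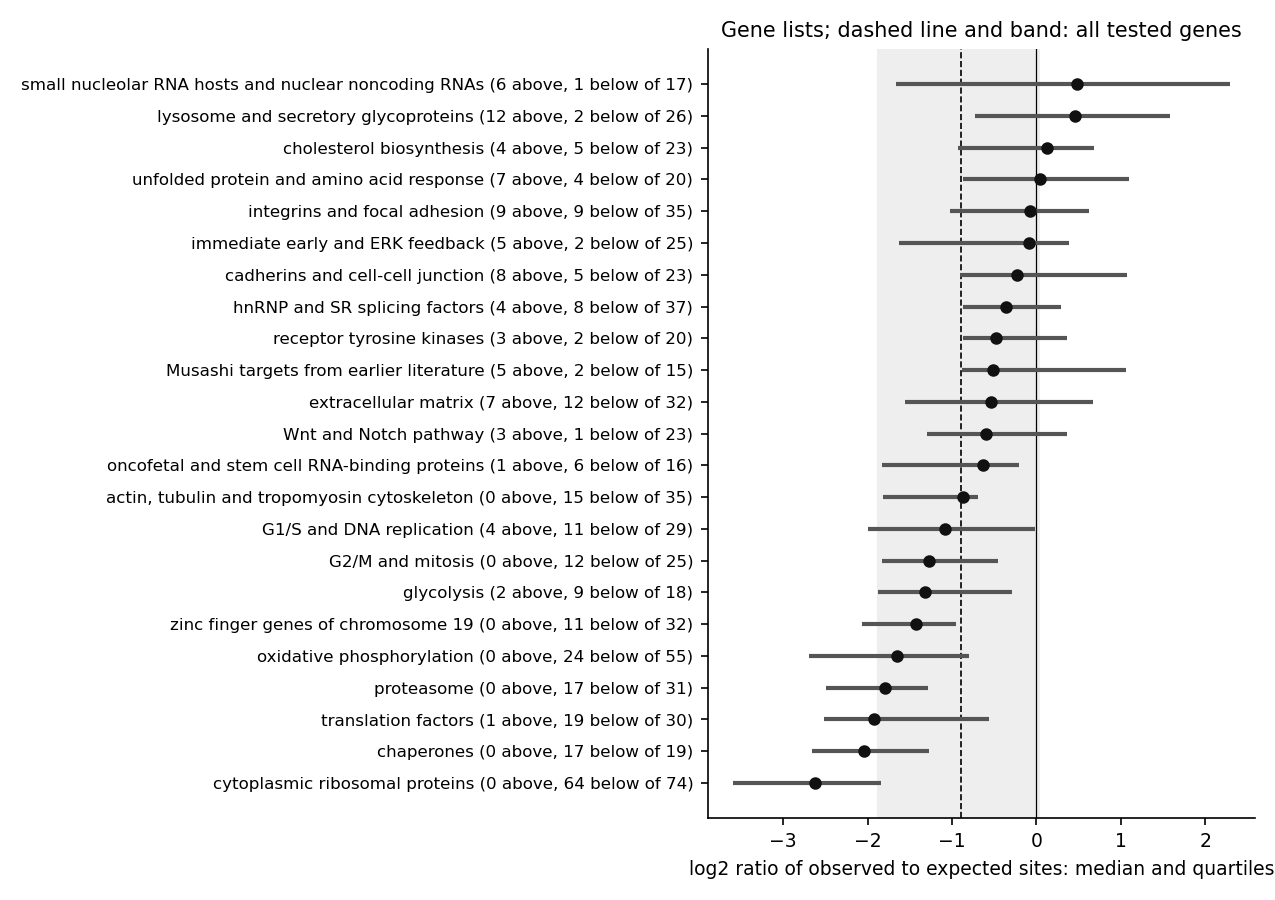
Median (point) and quartiles (bar) of the log2 ratio of observed to expected sites over the tested members of 23 gene lists, with the number of members above and below prediction in each label. The dashed line and grey band are the median (-0.90) and quartiles of all 12266 genes. Ribosomal proteins lie lowest at -2.63, and lysosome and secretory glycoproteins lie at 0.46.

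Families grouped by the start of their symbols, chosen after the values were seen, were also placed unevenly; no test of the families was made. Of 153 tested TMEM genes 39 (25.5%) were above prediction and 11 below, and of 198 solute carriers 38 (19.2%) were above and 30 below, against 8.93% and 25.1% over all genes. Of 31 kinesins 0 were above and 17 below, of 36 DDX helicases 1 was above and 21 below, of 16 aminoacyl-tRNA synthetases 0 were above and 11 below, and of 457 ZNF zinc finger genes 7 (1.53%) were above and 155 (33.9%) below.

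A property of the encoded protein that the prediction did not use was measured in the coding sequences of GENCODE release 29. A codon with T at its second position encodes phenylalanine, leucine, isoleucine, methionine or valine, so a run of such codons marks a hydrophobic stretch of the kind found in signal peptides and membrane spans. A window of 20 codons with at least 12 of them was present in 43.7% of genes above prediction with a coding sequence (450 of 1030), 22.2% of those not called (1705 of 7680) and 20% of those below (589 of 2949). Counted over the genes instead, 16.4% of genes with such a stretch were above prediction and 6.51% of those without. The difference was present in each range of abundance: at 20 to 50 CPM 17.6% of genes with a stretch were above against 6.00% without, and at 500 CPM or more 30% against 9.09%. A stretch that lay wholly within the first 40 codons was found in 9.61%, 4.15% and 1.97% of genes above, not called and below.

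**Figure D5:**
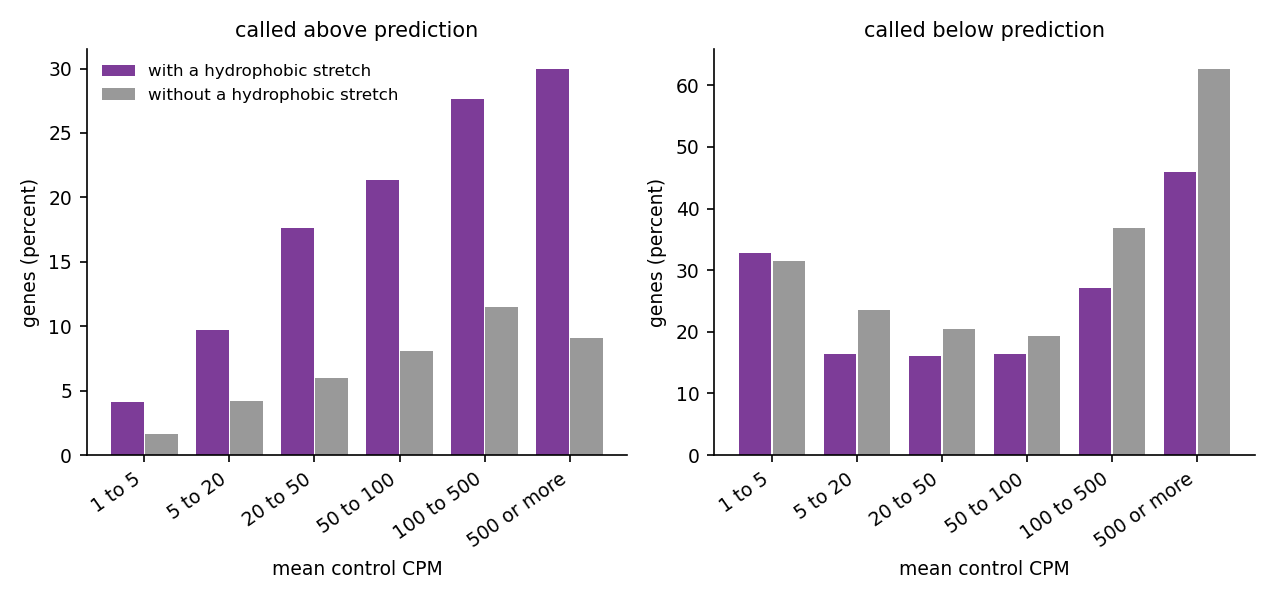
Percent of genes called above prediction (left) and below prediction (right) by range of mean control CPM, for genes with (purple) and without (grey) a stretch of 20 codons that holds at least 12 with T at the second position. In each range the purple bar is the higher one on the left, from 4.12% against 1.60% at 1 to 5 CPM to 30% against 9.09% at 500 CPM or more.

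Transcript structure also differed between the classes. The last exon held a median of 63.3% of the exonic length in genes above prediction, 48.6% in genes not called and 35.5% in genes below, and the median number of exons was 8, 9 and 12. The matched 3′ UTR had a median length of 1809 nt above, 1052 nt not called and 925 nt below, and the coding sequence had 1173, 1356 and 1998 nt. The share of sites that lay in the last exon was 95.0% of 12199 sites in genes above and 78.4% of 811 sites in genes below. In these genes with a load, 829 above and 292 below, the last exon held 64.4% and 32.2% of the exonic length. In both classes the share of sites exceeded the share of length. These shares do not rank the classes, since the share of sites in genes above was already close to its upper limit. With the length of the last exon as a further term 1021 genes were above and 2614 below, and 896 of the 1095 and 2211 of the 3073 kept their calls.

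In the 3′ UTR the Musashi core motif had like densities in the 3 classes. TAG (the DNA spelling of UAG, counted on the transcript strand) occurred at a median of 11.2 per kb of 3′ UTR in genes above prediction, 11.5 in genes not called and 11.6 in genes below. Relative to the number that the base composition of each 3′ UTR gives, the medians were 0.70, 0.68 and 0.66, with overlapping quartiles (0.55 to 0.84 above and 0.49 to 0.79 below). The 4 letters GTAG had medians of 2.53, 2.31 and 2.19 per kb of 3′ UTR. In coding sequences TAG was less dense in genes above prediction, with medians of 3.41 per kb above, 4.78 not called and 5.87 below. The 3′ UTRs of genes above prediction held more G and C, with a median of 46.4% against 39.2% below.

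Among the Musashi genes themselves, MSI1 had 12, 1 and 3 exonic sites where 6.01, 0.38 and 0.79 were expected and was not called (log2 ratio 1.20, SE 0.62, adjusted p = 0.116). MSI2, its paralog, had 58, 4 and 5 sites where 12.8, 1.09 and 2.24 were expected and was above prediction (log2 ratio 1.81, SE 0.32, adjusted p = 5.42e-07), a call lost without list 1; 1 of its sites was in at least 2 lists. Of 15 tested genes reported as Musashi targets in earlier literature, 5 (33.3%, against 8.93% of all genes) were above prediction and 2 (13.3%, against 25.1%) below. Together the 15 carried 55 sites in at least 2 lists where 54.8 were expected. Their median log2 ratio was -0.52, against -0.90 over all genes. TGFBR1, a TGF-beta receptor, had 41, 11 and 13 sites where 14.2, 1.02 and 2.14 were expected (log2 ratio 2.43, SE 0.32). CDK6, a G1 kinase, had 102, 21 and 36 where 35.2, 3.41 and 6.91 were expected (log2 ratio 2.16, SE 0.25). The calls of TGFBR1 and CDK6 were lost with deposited p-values under 0.05. MTOR, the growth kinase, had 8, 1 and 2 where 81.1, 9.33 and 18.7 were expected (log2 ratio -3.26, SE 0.73).

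The knockdown response of these genes is given beside their load without relating the measures, since the control libraries enter both the prediction and the fold change. MSI1 was at 16.0, 17.7 and 7.59 CPM in controls 1 to 3 and at 3.15, 5.11 and 2.26 CPM in the knockdown libraries, so the groups did not overlap; its log2 fold change was -1.97 (SE 0.42, edgeR, adjusted p = 0.070, and 0.0028 with the replicate number as a block). Over all genes 232 of 13856 (1.67%) were called, 107 higher (0.772%) and 125 lower (0.902%), and 2398 (17.3%) with the block. Of the 10 genes with the most sites, MALAT1 was called, at 2777 to 3381 CPM in controls and 1841 to 2020 CPM in the knockdown (log2 fold change -0.71, adjusted p = 0.046). With the block NEAT1 (-0.86, adjusted p = 0.0022) and ARL6IP1 (-0.52, adjusted p = 0.011) were also lower and B4GALT1 higher (0.29, adjusted p = 0.034). SCD and CD44 were not called in either fit, with log2 fold changes of 0.23 and -0.19. ARL6IP6, among the genes chosen after their load ratios were seen, was at 15.0 to 16.8 CPM in controls and 42.0 to 48.8 CPM in the knockdown. It was higher there (log2 fold change 1.52, edgeR adjusted p = 0.0093), as was TGFBR1 (1.5, adjusted p = 0.030). The calls of MALAT1, ARL6IP6 and TGFBR1 were lost when any 1 library other than control 3 was left out. Among called genes with at least 10 expected sites, the 10 furthest below prediction had edgeR adjusted p-values of 0.171 to 0.983 for the group alone. With the block TMSB4X was higher (0.46, adjusted p = 0.021) and FTH1 lower (-0.34, adjusted p = 0.024). Leaving out knockdown library 1 left 0 calls among all genes (1319 at an unadjusted p below 0.05), and without control 3 there were 1028.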

How the data were processed

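For each RNA-seq library the deposited files hold raw read counts of genes and of exons. For each iCLIP library the authors deposited single-nucleotide sites, each with a p-value. The submitters' processing notes name hg18. No source used here names the aligner, the counter, its strand setting or the caller of sites. The lists hold sites of any p-value: 4.40%, 2.77% and 3.74% of sites had a deposited p-value below 0.05, so the lists were used whole.

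Sites were assigned to the deposited exons by strand. Abundance was mean CPM after TMM scaling (edgeR 4.0.16, R 4.3.3; log2 values with a prior count of 2). Expected counts came from negative binomial regression (MASS) on natural splines with 3 degrees of freedom of log2 CPM and log2 exonic length, per list. edgeR's quasi-likelihood fit took log expected counts as offset, and the F statistic for a ratio of 1 was formed from its deviances. The standard error of a log2 ratio is its size over the square root of F. Genes with a mean control CPM under 1 were left out. The knockdown was tested with edgeR's quasi-likelihood test after filterByExpr, on the group alone. Same-numbered control and knockdown libraries deviated together from their group means (r = 0.43, 0.86 and 0.87), while control 1 correlated more with knockdown 2 (0.62). The fit on the group alone did not use the numbers, which come from the titles. Only the fit with the replicate number as a block treated them as pairs. Alternatives used limma 3.58.1 and DESeq2 1.42.0.

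Tested on simulated data (12266 genes), the load test recovered 98% of 50 genes raised 4-fold and 22% of those raised 2-fold. It recovered 36% of those lowered 4-fold and 4% of those lowered 2-fold, with 8 false calls. The changed genes were drawn only from those with higher expected counts. Counts were simulated from the fitted expected counts, so the false calls do not measure misfit of the prediction. On 13740 genes the knockdown test recovered 98% of 4-fold rises and 32% of 2-fold rises, with 7 false calls.

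Transcript features came from GENCODE release 29 transcripts matched by symbol (97.3% of tested genes), with no coordinates taken from it. A hydrophobic stretch is a window of 20 codons with at least 12 that have T at the second position. Named genes are MSI1 and MSI2, the 10 with the most sites in at least 2 lists, the 10 largest ratios among genes above with at least 10 such sites, the 10 smallest among genes below with at least 10 expected, the 5 most abundant per kb, and up to 3 called members per list; others are said to be chosen after their values were seen. The gene lists, members and tests were chosen with earlier results of these data known. Results for a few genes that this rule names are not reported here.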

Additional observations from a re-analysis of the deposited data

Results flagged for a closer look

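Exonic sites in at least 2 lists were also found in genes that the comparison left out because their gene counts were under the limit: 897 sites in 217 genes, of which 419 sites lay in 115 genes with symbols of small RNAs. They stand out because library counts for RNA-seq were at or near 0 there. SNORA81 had 35, 52 and 31 exonic sites in lists 1, 2 and 3 over 178 nt with 9, 6 and 5 reads in the control libraries; 18 of its 35 sites in at least 2 lists also lay in MIR1248. SNORA62 had 20, 42 and 28 sites over 154 nt with 29, 19 and 15 reads, and RNU11, a spliceosomal RNA, had 13, 15 and 13 sites with 7, 1 and 2 reads. In these 3 small RNAs list 1, although the largest, did not hold the most sites. C17orf44 had 20, 20 and 21 sites with 10, 12 and 19 reads. In 35 of the genes left out, among them MTPN and LUZP6 with 0 reads in each control library, all sites lay in exons of another gene; exons that genes share at the same coordinates hold 0 reads in the deposited exon tables (1005 of 1005 rows), so a count of 0 there does not show low abundance. How far the RNA-seq libraries capture RNAs of this length was not tested.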

How the results depend on the processing

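The counts above and below prediction (1095 and 3073) moved with what was counted. With sites of deposited p-value under 0.05 they were 149 and 159; with sites within 10 nt merged 1774 genes were below; with limma 586 were above; with the median ratio set to 1 (chosen after seeing the data, as were the 2-fold limit, the fit without genes that have pseudogenes, summed exon counts and the last exon term) they were 1939 and 816; and a 2-fold limit in each list left 508 above and 2510 below. Leaving out each iCLIP or control RNA library in turn gave 696 to 1130 above and 496 to 3293 below. For sites in all 3 lists the Spearman correlations of load with abundance and length were 0.18 and 0.058 and the deviance explained 58.9%; for sites in any list the correlations were 0.71 and 0.44. Knockdown calls were 976 higher and 1422 lower with the replicate block, against 107 and 125, 399 and 316 with DESeq2, and 0 to 629 higher and 0 to 399 lower when each library was left out. The causes were not tested.

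Of the named genes, these changed sign. The log2 ratio of ACTG1 was 0.058 with straight-line terms and 0.021 with the median set to 1, and its load ratio 0.36 with straight-line terms. With deposited p-values under 0.05 the log2 ratio of TCF7L2 was -2.06 and of IER2 -1.35, neither called. The load ratio of CD44 was -0.15 for sites in all 3 lists and -0.95 for p-values under 0.05. Without sites in exons of more than 1 gene the log2 ratios were -3.45 for PCDHGB1, -3.53 for PCDHGA6, -3.63 for PCDHGB3, -0.43 for PCDHGA5, -1.31 for PCDHGB2 and -0.76 for PCDHGA9. Among the 113 named genes, 53 calls were lost with p-values under 0.05, 45 without list 1 and 22 with the median set to 1. List 2 held 27058 exonic sites, so a gene with under 1 expected site there cannot be shown to be below prediction from that list alone.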
